A study of Mus musculus with 4 samples.

Results

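The trachea and the oviduct of mice labelled wild type (WT) were set side by side, gene by gene, on 1 Affymetrix array each. They are 2 of the 4 samples of a series that, per its title, examines what Gemc1 (current symbol Gmnc) does in the transcription of multiciliated cells; the arrays of mice labelled null for that gene were not used here. The samples were chosen by their tissue and genotype labels. The trachea came from a WT male of 39 days and the oviduct from a WT female of 65 days, both of a mixed C57BL/6 x 129 background and both untreated and not cultured. Each tissue was frozen whole after dissection, so every value is a mixture over all cells of the piece, and a lower number of cells of a type and less RNA per cell cannot be told apart. The labels do not give the oestrous stage of the female or the number of animals behind an array. Tissue, sex, age and animal differ together between the arrays and cannot be told apart. With 1 array per tissue there is no replicate, so differences are given by size only, with no test and no error.

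Trachea and oviduct are both lined by an epithelium in which multiciliated cells, each bearing many motile cilia, stand among secretory cells. In the airway the beating cilia carry mucus and trapped particles out of the lung, and in the oviduct they help to move the egg and the early embryo. A motile cilium is built on an axoneme, a ring of microtubule doublets round a central pair, and bends because dynein motors anchored on one doublet walk along the next. The linings have different origins: the trachea buds from foregut endoderm, whereas the oviduct forms from the Mullerian duct, a tube of mesoderm, and responds to ovarian hormones.

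All levels below are log2 signals after robust multi-array averaging (RMA), and all differences are oviduct minus trachea on that log2 scale, so a negative value means higher in trachea. The median over all probe sets was 5.91 in trachea and 5.97 in oviduct, and the median of the negative-control probe sets was 5.98 and 5.77. A level under that negative-control median is called below background, and a fold against it is given as "at least", taken against the median itself. Genes are counted on the log2 levels as they stand, so a gene past 2-fold in a count can have a smaller fold of this kind. The negative controls spread widely, with an upper quartile of 7.13 in trachea and 6.95 in oviduct, so a level between about these values and the median is weak evidence of a transcript. Over 72688 probe sets the arrays correlated at r = 0.948, a value across probe sets and not across samples. The hybridisation spike-in cre stood at 13.07 and 13.20, and bioB at 7.94 and 8.26. Xist, the RNA that silences an X chromosome in female cells, was 5.47 in trachea and 11.49 in oviduct. The Y-linked genes Eif2s3y, Uty and Kdm5d lay between 7.38 and 7.82 in trachea and between 4.45 and 4.66 in oviduct, as the sexes in the labels would have it. The genotype labels were not checked, since that would need the arrays left out here.

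The tissues had most transcripts at a similar level and differed strongly in a minority. The largest difference was that of the secreted protein gene Bpifa1 towards trachea and of the steroid enzyme gene Cyp11a1 towards oviduct. Of 30675 named genes, 19959 had a signal at or above the array median on at least 1 of the arrays and were counted. Among these, 1304 (6.53%) were at least 2-fold higher in trachea and 931 (4.66%) at least 2-fold higher in oviduct, whereas 17724 (88.8%) differed by less than 2-fold. Each count over a gene list below is to be read against these shares. At 16-fold or more, 35 genes were higher in trachea and 15 in oviduct. The median difference over all counted genes was 0.02. The 5222 negative-control probe sets differed by less than 2-fold in 88.5% of cases, and the central 95% of their differences ran from -1.50 to 0.99. For the 1324 positive controls the share within 2-fold was 95.8%, so a 2-fold difference of a weak gene weighs less than one of a bright gene. Centring the arrays on the housekeeping genes instead moved the split to 1101 higher in trachea and 1266 higher in oviduct, which turns the direction of the imbalance, and shifted the median of all genes to 0.18.

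**Figure D1:**
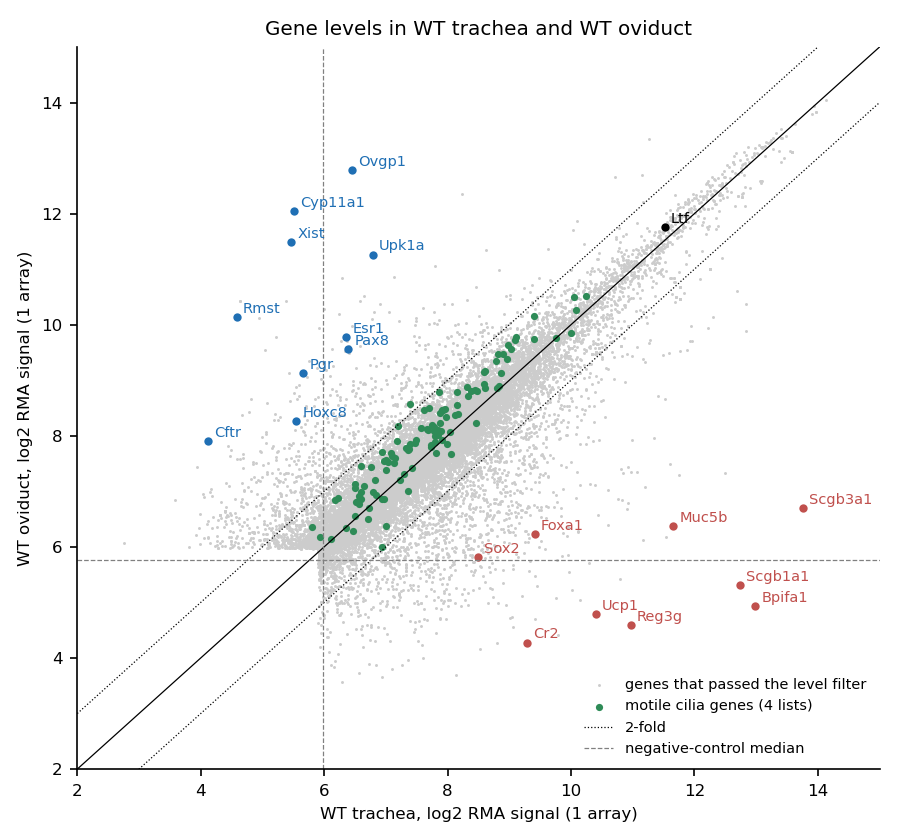
Log2 RMA signal of each gene in WT oviduct (vertical axis) against WT trachea (horizontal axis), 1 array each, with grey points for the 19959 counted genes, green points for the genes of the 4 motile cilia lists, red and blue points for examples higher in trachea and in oviduct, and a black point for Ltf. The green points run along the diagonal between the dotted 2-fold lines with 1 exception, while Bpifa1, Scgb1a1 and Scgb3a1 lie far to the lower right and Ovgp1 and Cyp11a1 far to the upper left.

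The machinery of motile cilia was within 2-fold between the tissues with 1 exception, and slightly brighter in oviduct. It was read through 4 lists of axonemal and ciliated-cell genes with 123 members, of which 115 were measured and 110 were counted. Of these 110, 0 were at least 2-fold higher in trachea and 1 in oviduct, and 109 (99.1%) differed by less than 2-fold, against 88.8% of all counted genes. Under a tighter limit of 1.5-fold the share was 80.9%, near the 77.5% of all counted genes. All 15 counted housekeeping genes and all 20 counted cell cycle genes were also under 2-fold. A high share under 2-fold is thus not particular to cilia genes, and the sets were not matched for signal level. The differences ran from -0.96 to 1.17, with a median of 0.37, against 0.02 over all genes. The difference was above 0 for 94 of the 110 genes (85.5%), against 51.7% of all counted genes, and for 103 when the arrays were centred on housekeeping genes. The median level of the 110 genes was 7.71 in trachea and 7.96 in oviduct, and 108 of them were above background on both arrays. The 5 members not counted were Dnah14, Dnaaf6, Ccdc96, Efhc2 and Tekt3.

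The axonemal dyneins, the motors of the cilium, had 19 counted members of 20 measured, of which 15 differed by less than 1.5-fold (median 0.28). Dnah5, a heavy chain of the outer dynein arm whose loss causes immotile cilia, was 9.11 in trachea and 9.78 in oviduct. Its partner chain Dnah9 was 8.60 and 8.86, and the outer arm intermediate chain Dnaic2 was 8.15 and 8.55. These outer arm chains were well above the negative controls in both tissues and a little higher in oviduct. Among inner arm chains Dnah3 was 8.84 and 8.89, Dnah6 was 9.40 and 9.74, and Dnah12 was 8.61 and 9.16. The other outer arm intermediate chain, Dnaic1, was 7.62 in trachea and 8.46 in oviduct. Dnah11, also an outer arm heavy chain, had the widest gap towards oviduct among the counted dyneins, at 7.20 and 8.17. Dnah8, a heavy chain best known from sperm tails, went the other way at 6.95 and 5.99, and Dnah17, another sperm tail chain, was 6.12 and 6.14; both are close to the negative controls. The near-identical genes Dnah7a and Dnah7c were 0.56 and 0.46 higher in oviduct, and probes for one may read the other.

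Dynein arms are put together in the cytoplasm by assembly factors and then fixed to the doublets by docking and ruler proteins. Of 20 measured genes of this kind 19 were counted, and 17 of the 19 were above 0 (median 0.38). The assembly factor Dnaaf3 was 7.91 in trachea and 7.92 in oviduct, Dnaaf5 was 8.80 and 8.86, and Dnaaf1 was 7.68 and 8.11. Zmynd10, which acts with the assembly factors, was 8.15 and 8.78. The nexin-dynein regulatory protein Drc1 was 7.42 on both arrays, and the ruler proteins Ccdc39 and Ccdc40 were 7.79 against 8.16 and 7.93 against 8.47. Ccdc65, another member of the regulatory complex, was the gene past 2-fold, at 7.39 in trachea and 8.57 in oviduct (2.25-fold higher in oviduct).

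Radial spokes and the central pair set the rhythm of the dyneins. All 21 measured genes of these structures were counted, 0 passed 2-fold, and the median difference was 0.40. The spoke proteins Rsph1 and Rsph9 were 8.04 and 7.85 in trachea and 8.07 and 8.02 in oviduct, and Rsph4a was 8.82 and 9.47. Hydin, a giant central pair protein, was 9.09 in trachea and 9.73 in oviduct, Spag17 was 7.23 and 7.20, and Spef2 was 7.47 and 7.87. The central pair gene Spag16 had the most negative difference of the list, -0.20, and Iqub, a spoke protein, the most positive, 0.69.

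The longest list held doublet microtubule proteins, kinases and other proteins of ciliated cells, with 51 counted of 54 measured. None passed 2-fold, and 41 stayed within 1.5-fold (median 0.37). Tppp3, a tubulin-binding protein of ciliated cells, was 9.76 in trachea and 9.77 in oviduct, and Riiad1 was 7.30 and 7.32. The cadherin-related Cdhr3 and Cdhr4 were 10.01 and 10.08 in trachea and 9.85 and 10.26 in oviduct. Among the tektins, filament proteins inside the doublets, Tekt1 was 6.84 and 6.93, Tekt2 was 7.14 and 7.51, and Tekt4 was 7.88 and 8.41. Sntn, which encodes sentan of the ciliary tip, was 9.41 and 10.15. The largest gaps towards oviduct were those of Cfap61 (7.86 and 8.80), the kinase Nek10 (6.60 and 7.46) and the kinesin Kif9 (7.70 and 8.50). Those towards trachea were the kinase Stk33 (a difference of -0.64), Lrrc23 (8.05 and 7.68) and Cfap100 (a difference of -0.36).

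The promoters of these shared genes had a sequence feature that the choice of genes did not use. RFX transcription factors, known activators of ciliary genes, bind the X-box, an inverted repeat whose half-site is often GTTGCC. RefSeq windows (assembly GRCm38.p6) from 250 bases before to 50 bases after each annotated start were found for 102 of the 123 listed genes, in 111 windows. The letters GTTGCC, read on both strands, occurred in 47 of these 111 windows (42.3%), against 12.5% of all 32851 windows. For genes of intraflagellar transport the share was 41.2% of 34 windows. It was 5.63% for 71 windows of the airway lists, 4.6% for 87 windows of the reproductive tract lists and 9.09% for 22 windows of general epithelial genes. Genes at least 2-fold higher in trachea had it in 11.4% of 941 windows and those higher in oviduct in 15.8% of 739. The forkhead string TGTTTAC was found in 8.11% of the cilia windows, 0 of the 34 intraflagellar transport windows, 4.23% of the airway windows, 4.6% of the reproductive tract windows and 3.65% of all windows. The TATA box string TATAAA went the other way, in 9.01% of the cilia windows against 13.6% of all, 16.9% of the airway windows and 16.1% of the reproductive tract windows. A match is a description of the letters, not evidence of a bound site, and the windows of each set were not matched for base composition. Stretches of 40 bases are printed for 6 motile cilia genes that were above background on both arrays, to show what a matching promoter looks like; they were picked for the match, and most of the 111 windows have none. They run 5′ to 3′ on the strand of the gene, all before its start, and capitals mark the half-site, as GTTGCC or, where it lies on the opposite strand, as GGCAAC.
Sntn: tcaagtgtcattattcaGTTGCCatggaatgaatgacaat
Dynlrb2: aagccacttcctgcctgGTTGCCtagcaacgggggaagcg
Kif9: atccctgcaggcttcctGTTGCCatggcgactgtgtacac
Dnaic2: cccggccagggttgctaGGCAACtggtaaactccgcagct
Tekt1: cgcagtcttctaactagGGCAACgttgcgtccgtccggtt
Cfap44: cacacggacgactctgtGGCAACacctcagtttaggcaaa

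These stretches lie at chr14:13670793-13670832 (Sntn, plus strand), chr8:116504947-116504986 (Dynlrb2, plus), chr9:110476950-110476989 (Kif9, plus), chr11:114727376-114727415 (Dnaic2, plus), chr11:72361895-72361934 (Tekt1, minus) and chr16:44394653-44394692 (Cfap44, plus) of GRCm38.p6. The half-site ended 60 bases before the annotated start in Sntn, 45 in Dynlrb2, 21 in Kif9, 20 in Dnaic2, 29 in Tekt1 and 123 in Cfap44. Dynlrb2, a dynein light chain, was 7.97 in trachea and 8.33 in oviduct, and Cfap44, a protein that tethers an inner dynein, was 8.78 and 9.35.

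**Figure D2:**
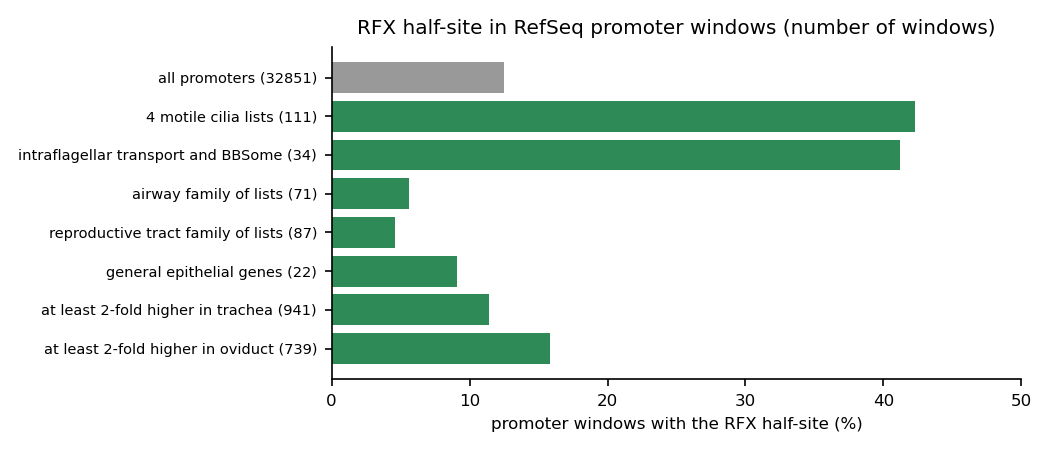
Share of RefSeq promoter windows (horizontal axis, percent, from 0) that hold the RFX half-site GTTGCC on either strand, for all promoters and for 7 sets of genes, with the number of windows in brackets. The motile cilia and intraflagellar transport bars stand at 42.3% and 41.2%, above the 12.5% of all promoters, and the airway and reproductive tract lists stand at 5.63% and 4.6%.

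Intraflagellar transport, the train that builds any cilium, and the BBSome cargo adaptor also stayed within 2-fold but with wider gaps. Of 34 counted genes 0 passed 2-fold, while 19 (55.9%) were under 1.5-fold, against 77.5% of all counted genes and 80.9% of the motile cilia genes. The difference was above 0 for 29 of the 34, with a median of 0.56. Ift88 was 7.73 in trachea and 8.44 in oviduct, Ift20 was 9.59 and 10.14, and the kinesin accessory protein Kifap3 was 7.20 and 8.09. The other 5 went the other way, with the adaptor Traf3ip1 at 8.18 and 7.66, the motor Kif3b at 8.25 and 7.92 and the BBSome protein Bbip1 at 7.38 and 7.09. Centriole amplification, by which a cell makes the many basal bodies on which cilia stand, was centred on 0, with 10 of 20 counted genes above 0 and a median of -0.02. Deup1, a core protein of the deuterosome where new centrioles form, was 6.40 in trachea and 6.11 in oviduct, and Cep152 was 6.18 and 5.99. Cetn3, a centrin of the basal body, was 5.96 and 6.67. Deup1, Cep152 and Cetn3 lay under the upper quartile of the negative controls on both arrays. The median level of the counted centriole genes was 6.90 in trachea, also under that quartile, and 7.22 in oviduct, so their median difference is weak evidence of equal levels.

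The regulators that switch on the multiciliated state were level between the tissues, with 1 exception. Gmnc itself was 5.90 in trachea, below background, and 6.11 in oviduct. Mcidas, its relative that activates the same programme with E2F factors, was 7.50 and 7.23. Ccno, a cyclin-like protein needed for centriole amplification, was 6.72 and 6.20. The early multiciliated factor Myb was 8.54 in trachea and 8.31 in oviduct, and Trp73, which encodes p73, was 7.58 and 7.88. The ciliary RFX factors Rfx2 and Rfx3 were 8.48 and 7.72 in trachea and 8.74 and 7.87 in oviduct. None of these differed by 2-fold. E2f4 was 9.27 and 8.63, E2f5 was 6.99 and 7.62, their dimer partner Tfdp1 was 8.74 and 8.75, and Gmnn, which encodes geminin, was 6.18 and 6.23. Foxn4 was 7.10 and 7.32, Rfx1 was 8.43 and 8.25, Rfx5 was 7.82 and 7.28, Rfx7 was 7.13 and 6.86, and Ptbp1 was 9.97 and 10.04. Rfx4 was 5.33 and 5.58 and was not counted. The exception was Foxa1, a pioneer factor of endoderm, at 9.41 in trachea and 6.23 in oviduct (9.06-fold higher in trachea). Of 17 counted regulators 1 was at least 2-fold higher in trachea and 0 in oviduct (median 0.01). Foxj1, the master factor of motile cilia, could not be given a value of its own, as its probe set is annotated to more than 1 gene.

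Among microRNA hairpins tied to multiciliated cells, only Mir449b stood clear of the negative controls, and it was level between the tissues. The miR-34 and miR-449 families restrain Notch signalling and help centriole docking in ciliated cells; this group was drawn up after the values had been seen, and the probe sets read the hairpin transcript and not the mature molecule. Mir449b was 8.51 in trachea and 8.58 in oviduct, Mir449c was 6.54 and 6.37, and Mir34b was 6.71 and 6.89. Mir449c and Mir34b lay under the upper quartile of the negative controls on both arrays. Mir449a (5.88 and 5.74) and Mir34c (3.76 and 3.92) were below background on both and were not counted. Similar values in that range do not show equal levels of a transcript. Their mature 5′ arms, taken from RefSeq, share the seed GGCAGUG, which is printed in capitals as bases 2 to 8.
miR-34b-5p: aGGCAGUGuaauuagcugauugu
miR-449a-5p: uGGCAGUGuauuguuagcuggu
miR-449c-5p: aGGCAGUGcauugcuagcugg

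Genes common to any epithelium were above background in both tissues and mostly brighter in oviduct. Of 29 counted, 25 were above 0 (median 0.46), which is close to the median of the cilia lists, 0.37. The adhesion protein Cdh1 (E-cadherin) was 9.89 in trachea and 10.19 in oviduct, Epcam was 8.63 and 9.60, and the keratins Krt8 and Krt19 were 10.26 and 9.75 in trachea and 10.95 and 10.07 in oviduct. Krt18, the partner of Krt8, was 9.67 and 10.81 (2.2-fold higher in oviduct), and the epithelial ETS factor Ehf was 8.55 and 10.02 (2.77-fold). The lowest differences were those of Krt7 (-0.17) and Elf3 (-0.17). Among 16 counted claudins, the seals of tight junctions, 0 were 2-fold higher in trachea and 2 in oviduct: Cldn1 at 7.83 and 9.41 (3.01-fold) and Cldn2, which forms a leaky pore, at 5.51 and 6.69 (at least 1.63-fold). The 87.5% of claudins under 2-fold is near the 88.8% of all genes. Cldn3 was 9.08 and 9.56, Cldn4 was 8.04 and 8.02, and Cldn18, a claudin of lung and stomach, was 7.22 and 6.57.

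The secreted products of the airway gave the largest single-gene differences towards trachea. Bpifa1, an abundant surface-active defence protein of the upper airway, was 12.99 in trachea and 4.93 in oviduct, at least 149-fold higher in trachea and the largest difference towards trachea of all counted genes. Scgb1a1, the club cell secretoglobin, was 12.74 and 5.32 (at least 125-fold), and Scgb3a1 was 13.76 and 6.70 (134-fold). Both were at or near background in oviduct. Muc5b, the main gel-forming mucin of mouse airways, was 11.65 and 6.37 (38.9-fold), and Bpifb1, a relative of Bpifa1, was 11.54 and 6.18 (41.1-fold). Reg3g, an antibacterial lectin, was 10.97 and 4.60 (at least 36.7-fold), Scgb3a2 was 9.78 and 4.42 (at least 16.1-fold), and Lypd2 was 10.29 and 5.72 (at least 23-fold). Cyp2a4, a steroid hydroxylase related to the odorant-metabolising enzymes of the nose, was 12.49 and 7.33 (35.8-fold), though near-identical family members may share its probes.

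Not every airway secretory gene was specific to the trachea. Of 23 counted members of the list, 18 (against 6.53% of all genes) were at least 2-fold higher in trachea and 0 in oviduct, and the median difference was -2.46. Of the 23, 9 were below background in oviduct, and Tff2 (9.23 in trachea and 5.89 in oviduct) was under the oviduct array median. These genes were counted through trachea alone, which fixes their direction. The median was -1.86 where a gene had to reach the array median on both arrays. Cyp2f2, the club cell cytochrome, was 12.83 in trachea but still 10.38 in oviduct (5.49-fold). Sec14l3, a lipid-binding protein, was 11.49 and 9.45 (4.1-fold), Cbr2, a lung carbonyl reductase, was 11.96 and 9.70 (4.78-fold), and Selenbp1 was 11.20 and 9.34 (3.63-fold). These 4 genes were bright on both arrays. Agr2, a disulfide isomerase needed for mucin folding, was 9.46 and 9.45, and Lrrc26 was 7.78 and 8.38, the highest difference towards oviduct in the list. Muc5ac, the inducible airway mucin, was 7.22 and 5.76 (at least 2.72-fold). Bpifb9a and Bpifa2 were below background on both arrays.

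**Figure D3:**
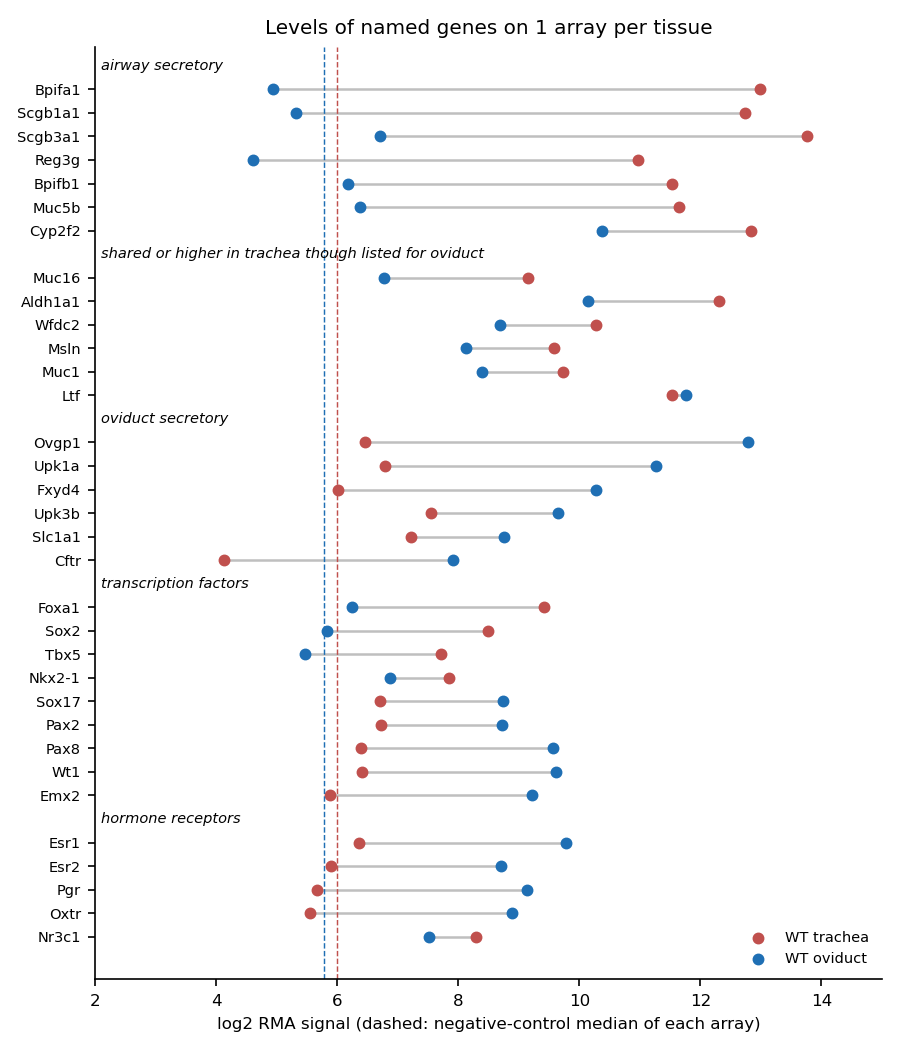
Log2 RMA signal (horizontal axis) of 33 named genes in WT trachea (red) and WT oviduct (blue), 1 array each, joined by a grey line and grouped by role, with dashed lines at each array's negative-control median. Red points lie far to the right in the airway secretory group and blue points in the oviduct secretory and hormone receptor groups, except for Nr3c1, while the points for Ltf almost meet.

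Transport and defence genes of the lining divided between the tissues. Of 28 counted genes for ions, water and bicarbonate, 9 were at least 2-fold higher in trachea and 3 in oviduct. All 3 subunits of the epithelial sodium channel were higher in trachea: Scnn1a was 9.40 and 7.47 (3.83-fold), Scnn1g was 7.64 and 5.92 (3.28-fold), and Scnn1b, at 7.15 and 6.30, was short of 2-fold. The calcium-activated chloride channel regulator Clca1, a goblet cell product, was 8.82 in trachea and below background in oviduct (at least 8.29-fold), Clca3b was 8.03 and 5.43 (at least 4.79-fold), and the water channel Aqp5 was 9.21 and 7.52 (3.24-fold). Carbonic anhydrases, which handle bicarbonate, differed in direction: Car8 was 8.61 and 5.80 (7-fold higher in trachea) and Car4 was 8.73 and 6.53 (4.59-fold), whereas Car2 was 7.17 and 9.10 (3.81-fold higher in oviduct). The bicarbonate cotransporter Slc4a4 was 8.58 and 9.90 (2.5-fold higher in oviduct) and the potassium channel subunit Kcne3 was 7.53 and 9.78 (4.74-fold). Cftr, the chloride and bicarbonate channel mutated in cystic fibrosis, was 4.12 in trachea, below background, and 7.91 in oviduct, at least 3.8-fold higher. The chloride channel Ano1 was bright in both, at 8.93 and 9.91.

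Among mucosal defence genes 9 of 18 counted were at least 2-fold higher in trachea (against 6.53% of all genes) and 1 in oviduct. Of the 18, 5 were below background in oviduct. These and Retnla, under the oviduct array median, were counted through trachea alone, which fixes their direction. The count of 9 thus partly follows from the filter. The median was -1.02, and -0.18 with no filter. The lysozymes Lyz2 and Lyz1 were 12.84 and 11.52 in trachea and 9.88 and 8.67 in oviduct (7.76-fold and 7.2-fold), though the paralogs may share probes. Pigr, which carries IgA across the epithelium, was 9.05 and 6.27 (6.9-fold), Retnla was 8.68 and 5.82 (7.28-fold), and the chemokine Cxcl17 was 10.10 and 7.34 (6.75-fold). Wfdc18, a small protease inhibitor, was the member higher in oviduct, at 4.78 and 8.43 (at least 5.44-fold). Ccl28, a chemokine of mucosal plasma cells, was 7.38 and 8.04, and Ptges, a prostaglandin synthase, was 7.73 and 8.04. The 10 members that were not counted included S100a8, S100a9, Lpo and Duox2, all below background in trachea.

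Basal cells, the stem cells at the base of the airway lining, were read through 16 markers, a few of which were clearly higher in trachea. Of these 4 were at least 2-fold higher in trachea (against 6.53% of all genes) and 0 in oviduct (median -0.58). Krt15 was 10.15 and 7.12 (8.15-fold), Krt5 was 9.52 and 6.72 (6.94-fold), Dapl1 was 7.88 and 5.43 (at least 4.32-fold) and Aqp3 was 8.87 and 6.82 (4.11-fold). Trp63, whose product p63 defines basal cells, was 6.92 and 5.94, just short of 2-fold and within the range of the negative controls. Krt14 was 6.34 and 6.46, and Pdpn, which other cell types also express, was 9.19 and 10.16. Of 14 counted markers of tuft cells, neuroendocrine cells and ionocytes, 0 were 2-fold higher in trachea and 1, Cftr, in oviduct; the 92.9% under 2-fold is near the 88.8% of all genes. Foxi1, the ionocyte factor, was 7.22 and 6.92, the tuft cell factor Pou2f3 was 6.59 and 6.55, and the tuft cell kinase Dclk1 was 7.74 and 6.91.

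Transcription factors of the foregut and airway were higher in trachea in a few cases and level in most. Of 23 counted, 5 were at least 2-fold higher in trachea, 1 in oviduct and 17 in neither (median -0.37). Sox2, which separates trachea and oesophagus from other gut derivatives, was 8.49 and 5.82 (6.33-fold), and Tbx5, a mesenchymal factor of lung and heart, was 7.71 and 5.46 (at least 3.82-fold). Foxf1 of the foregut mesenchyme was 9.09 and 7.14 (3.87-fold), Tbx1 of the pharynx was 8.37 and 6.78 (3.01-fold), and Irx2 was 7.28 and 6.00 (2.43-fold). Nkx2-1, the factor that defines the respiratory field, was 7.85 in trachea and 6.87 in oviduct, short of 2-fold. Foxa2, the relative of Foxa1, was 6.91 and 6.95. Tbx2 was the member higher in oviduct, at 7.72 and 9.15 (2.7-fold), while Tbx4 was 7.73 and 7.03 and Tbx3 was 7.35 and 7.66. Spdef, a goblet cell factor, was 7.28 and 7.77.

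The remaining members were all under 2-fold. Foxp1 was 9.13 and 8.39, Foxp2 was 6.83 and 6.77, and Foxp4 was 9.32 and 8.97. Irx1 (6.40 and 5.91), Irx3 (7.24 and 6.84) and Irx5 (7.62 and 7.26) were each lower in oviduct by less than 1.5-fold. The same held for Foxf2 (6.11 and 5.69), Grhl1 (6.39 and 6.02), Grhl3 (6.36 and 6.17), Pitx1 (6.89 and 6.65), Barx1 (7.96 and 7.73) and Nkx2-5 (7.61 and 7.59).

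The oviduct was marked by its own secretory and surface proteins. Ovgp1, the oviductal glycoprotein that coats the egg, was 6.45 in trachea and 12.79 in oviduct (80.9-fold). Upk1a, a uroplakin of plaque-forming membranes, was 6.79 and 11.26 (22.3-fold), Upk3b was 7.54 and 9.64 (4.28-fold), and Fxyd4, a regulator of the sodium pump, was 6.00 and 10.28 (19.4-fold). Slc1a1, a glutamate transporter, was 7.22 and 8.75 (2.9-fold), and Crabp2, which carries retinoic acid to its receptor, was 5.43 and 6.77 (at least 1.72-fold). Of 26 counted members 11 were at least 2-fold higher in oviduct (against 4.66% of all genes).

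The same list also held 6 genes at least 2-fold higher in trachea, so its members did not all mark the oviduct. Muc16, a membrane mucin, was 9.14 in trachea and 6.77 in oviduct (5.16-fold higher in trachea), and Muc1 was 9.72 and 8.39 (2.53-fold). Aldh1a1, which makes retinoic acid, was 12.30 and 10.15 (4.45-fold), the protease inhibitor Wfdc2 was 10.27 and 8.69 (3-fold), Msln, a mesothelial and epithelial surface protein, was 9.57 and 8.13 (2.71-fold), and the retinol carrier Rbp4 was 8.80 and 7.64 (2.23-fold). Ltf, the iron-binding defence protein lactoferrin, was bright in both, at 11.52 and 11.76. Clu (9.61 and 9.50) and Gpx3 (9.71 and 9.99) were level as well.

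The transcription factors of the Mullerian duct and its derivatives were often higher in oviduct. Of 22 counted, 11 were at least 2-fold higher in oviduct (against 4.66% of all genes) and 0 in trachea (median 1.03). Pax8, a paired-box factor of oviduct secretory cells, was 6.39 in trachea and 9.57 in oviduct (9.05-fold), and its relative Pax2 was 6.72 and 8.72 (3.98-fold). Emx2, a homeobox gene of the urogenital tract, was 5.88 and 9.22 (at least 9.44-fold), and Wt1, a factor of mesothelium and gonad, was 6.40 and 9.61 (9.27-fold). All 4 lay near background in trachea. Sox17 was 6.70 and 8.74 (4.09-fold), Meis2 was 6.76 and 9.04 (4.87-fold), and Meis1 was 7.32 and 9.28 (3.9-fold). Gata6 was 8.07 and 9.53 (2.74-fold), Gata2 was 8.40 and 9.72 (2.51-fold), the ovarian and uterine factor Foxl2 was 6.92 and 8.20 (2.43-fold), and Osr2 was 8.33 and 9.42 (2.12-fold).

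Other factors of that list were under 2-fold. Gata4 was 6.31 in trachea and 7.26 in oviduct, Hey2 was 6.16 and 7.14, Tcf21 was 7.05 and 7.82, Nr2f2 was 8.03 and 8.57, Hand2 was 6.92 and 7.41, and Nr2f1 was 5.71 and 6.04. Lhx1, which the Mullerian duct needs while it forms, was 6.48 and 6.42, Lhx2 was 6.63 and 6.34, Emx1 was 6.50 and 6.39, and Foxo1 was 9.61 and 9.51. Osr1 had the lowest difference, at 8.62 and 7.82. Lhx9 was below background on both arrays.

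Receptors for ovarian hormones and their target genes followed the same direction. Of 21 counted, 10 were at least 2-fold higher in oviduct (against 4.66% of all genes) and 1 in trachea (median 0.72). Of the 21, 5 were below background in trachea, and those also under the array median there were counted through oviduct alone. The count of 10 thus partly follows from the filter. The median was 0.26 where a gene had to reach the array median on both arrays. Esr1, the oestrogen receptor, was 6.36 and 9.78 (10.7-fold), Esr2 was 5.90 and 8.70 (at least 6.57-fold), and the progesterone receptor Pgr was 5.66 and 9.14 (at least 8.89-fold). The oestrogen target Greb1 was 6.13 and 9.56 (10.8-fold), and Ihh, a progesterone-responsive ligand, was 6.57 and 8.41 (3.58-fold). Receptors for peptide hormones went the same way: Oxtr for oxytocin was 5.55 and 8.88 (at least 7.43-fold), Rxfp1 for relaxin was 4.67 and 7.16 (at least 2.25-fold), and Amhr2 for anti-Mullerian hormone was 6.26 and 7.77 (2.84-fold). Fshr was 4.50 and 6.00 (at least 1.01-fold), a value barely above background.

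The receptors for adrenal steroids ran the other way or level. Nr3c1, the glucocorticoid receptor, was 8.29 in trachea and 7.51 in oviduct, and its target Tsc22d3 was 8.74 and 7.63 (2.16-fold higher in trachea). Nr3c2 was 7.82 and 7.64, Fkbp5 was 8.17 and 8.09, and Sgk1 was 8.27 and 8.60. Among Wnt ligands of the duct Wnt5a was 6.61 and 8.22 (3.05-fold higher in oviduct), Wnt7a was 6.44 and 7.10, Wnt11 was 7.30 and 8.02, and Wnt4 was 7.61 and 7.80. Rarb was 6.83 and 6.16, Ptgs2 was 7.28 and 6.98, and Gper1 was 6.42 and 6.58.

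Hox genes, which give cells their position along the body axis, were higher in oviduct mainly at the middle paralogue numbers. Of 33 measured, 27 were counted, of which 12 were at least 2-fold higher in oviduct (against 4.66% of all genes) and 0 in trachea (median 0.83). Of the 27, 11 were below background in trachea. Those of them also under the trachea array median of 5.91 entered the count through their oviduct level alone. The count of 12 thus partly follows from the filter. The largest gaps lay at paralogues 5, 6 and 8. Hoxb5 was 5.83 in trachea and 8.54 in oviduct (at least 5.89-fold), Hoxc5 was 4.90 and 7.17 (at least 2.27-fold) and Hoxa5, a gene also needed by lung and trachea, was 6.28 and 8.17 (3.71-fold). Hoxc6 was 6.62 and 8.93 (4.94-fold), Hoxb6 was 6.06 and 8.24 (4.55-fold), and Hoxa6 was 6.28 and 8.37 (4.27-fold). Hoxc8 was 5.55 and 8.27 (at least 4.88-fold) and Hoxb8 was 5.85 and 8.18 (at least 4.59-fold), while Hoxd8 was 6.98 and 7.81. Hoxc4 (6.10 and 7.81), Hoxc9 (5.98 and 7.24), Hoxd10 (5.48 and 6.58) and Hoxa3 (6.27 and 7.33) were also past 2-fold on the log2 values.

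The other Hox genes differed by less than 2-fold or were not counted. Hoxb2 was 6.18 on both arrays, Hoxb1 was 5.92 and 6.16, and Hoxa2 was 6.26 and 6.89. Hoxa4 was 6.94 and 7.49, Hoxb3 was 7.32 and 8.08, and Hoxd9 was 6.38 and 7.21. Hoxa10, a gene of the uterus, was 6.03 and 6.69, Hoxb7 was 5.71 and 6.67, and Hoxb9 was 6.51 and 6.39. Hoxa13, a gene of the vagina and cloaca, was 6.63 and 6.40, and Hoxc11, Hoxc12, Hoxc13 and Hoxd11 had differences of 0.09, 0.33, 0.07 and 0.44. Hoxa11, Hoxb13, Hoxc10, Hoxd1, Hoxd12 and Hoxd13 were measured but not counted, among them Hoxc10 at 3.88 and 5.53, below background on both arrays. Another 6 Hox genes had no probe set of their own name.

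**Figure D4:**
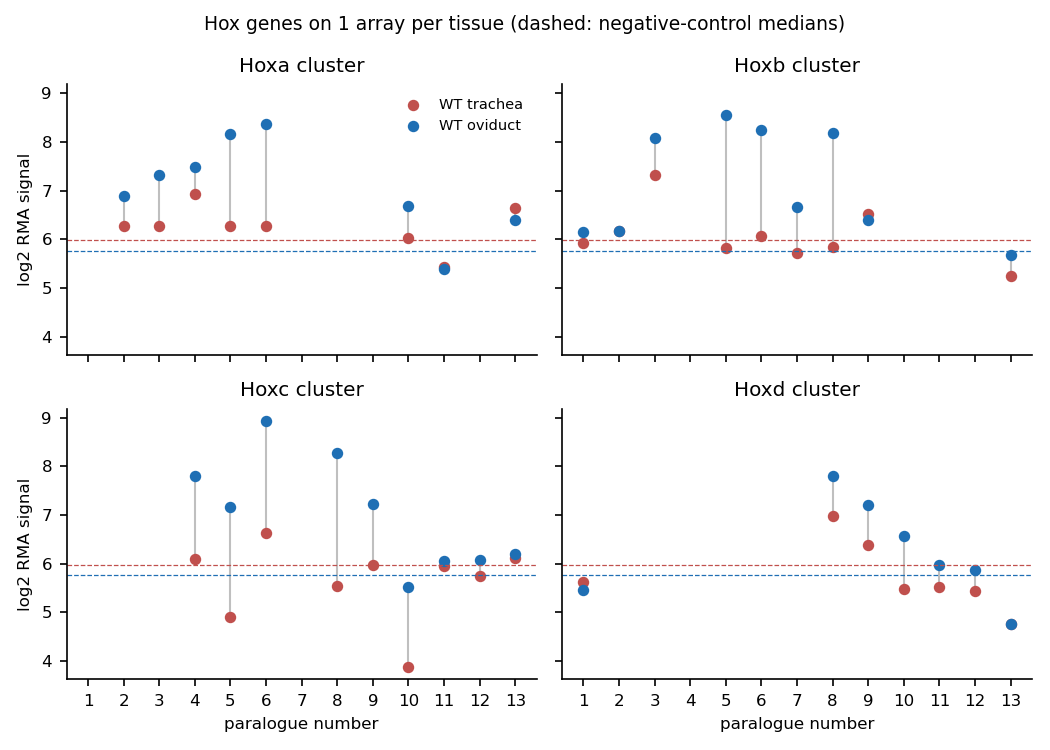
Log2 RMA signal (vertical axis) of 33 Hox genes in WT trachea (red) and WT oviduct (blue), 1 array each, by paralogue number (horizontal axis) and cluster, with dashed lines at the negative-control medians of 5.98 and 5.77. The blue points stand clear of the red ones from paralogue 4 or 5 to 8 or 9 and lie closer to them at most other positions.

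A set of small-RNA hairpins and long noncoding transcripts was mostly higher in oviduct. It was singled out after the values had been seen. Mir100hg, the long transcript that holds Mir100 and Mirlet7a-2, was 6.03 in trachea and 9.18 in oviduct (8.9-fold). A second probe set of Mir100hg had a smaller gap, at 6.20 and 8.17. The hairpin Mir100 was 5.29 and 8.33 (at least 5.09-fold) and Mirlet7a-2 was 4.49 and 6.49 (at least 1.42-fold), both below background in trachea. In the related cluster on another chromosome, Mir99a was 5.54 and 7.63 (at least 3.13-fold) and Mirlet7c-1 was 4.11 and 6.41 (at least 1.35-fold). Mir99ahg, whose RefSeq gene positions do not enclose these hairpins, was 5.72 and 7.31 (at least 2.51-fold). Mir125b-1, also inside Mir100hg, was 3.43 and 3.45, and Mir125b-2 was 4.54 and 5.65, all below background. Rmst, a long noncoding RNA of neural progenitors, was 4.58 and 10.13 (at least 17.7-fold), and the hairpin Mir1251 inside it was 5.25 and 8.28 (at least 4.92-fold). Mir200b and Mir200a, of a family that holds cells in the epithelial state, were 6.08 and 5.65 in trachea and 7.69 and 6.98 in oviduct (3.06-fold and at least 1.99-fold). Mir200c (4.67 and 4.99) and Mir141 (4.51 and 4.85), of the same family, were below background on both arrays and were not counted. The mature 5′ arms of miR-100 and miR-99a have the seed ACCCGUA in common, and let-7c has GAGGUAG; the 3′ arms of miR-200a and miR-200b have AACACUG and AAUACUG. They are printed from RefSeq with bases 2 to 8 in capitals.
miR-100-5p: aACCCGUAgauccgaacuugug
miR-99a-5p: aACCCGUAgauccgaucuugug
let-7c-5p: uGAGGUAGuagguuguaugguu
miR-1251-5p: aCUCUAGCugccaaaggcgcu
miR-200a-3p: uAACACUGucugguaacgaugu
miR-200b-3p: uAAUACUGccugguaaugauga

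Other genes among the 20 largest differences towards oviduct had no list of their own. Calb1, a calcium buffer, was 4.64 in trachea and 10.42 in oviduct (at least 21.6-fold), and Gcnt3, a mucin-type glycan branching enzyme, was 5.23 and 9.78 (at least 13.9-fold). Fads2b, a fatty acid desaturase relative, was 6.30 and 10.84 (23.4-fold), Plekhs1 was 5.39 and 10.43 (at least 21.8-fold), and Hdc, which makes histamine, was 6.65 and 10.51 (14.5-fold). Slc25a48 (6.23 and 10.19), Fndc7 (6.59 and 10.42), Wfdc15b (4.82 and 8.66) and the noncoding E330013P04Rik (5.04 and 9.54) complete that group. Each of these 9 genes was bright in oviduct and at or near background in trachea.

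The wall around the lining was read through markers of muscle, cartilage, connective tissue, vessels and nerve. Smooth muscle markers were above background in both tissues, and 13 of 15 (86.7%) were under 2-fold, close to the 88.8% of all genes. Acta2 was 11.50 in trachea and 11.31 in oviduct, Myh11 was 10.77 and 10.50, and Tagln was 10.38 and 10.32. Casq2 (7.31 and 5.93, 2.6-fold) and Des (10.21 and 9.04, 2.24-fold) were higher in trachea. Skeletal muscle markers were weak, with 4 of 12 counted at least 2-fold higher in trachea, led by Ttn (7.24 and 5.21, at least 2.77-fold) and Tnnt3 (8.01 and 6.32, 3.22-fold). Ttn, Casq2 and Des are also expressed in heart, and of 13 cardiac muscle genes, a list drawn up after the values had been seen, 9 were at least 2-fold higher in trachea (median -1.40, summed linear signal 6867 and 1753). The part of cardiac muscle in these differences was not tested.

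Cartilage, the skeleton of the trachea, appeared through a few genes only. Chad was 11.41 in trachea and 8.71 in oviduct (6.5-fold), Cytl1 was 9.19 and 6.53 (6.32-fold), Col10a1 was 8.09 and 5.72 (at least 5-fold) and Acan was 7.23 and 5.85 (2.6-fold). The defining collagen Col2a1 was 7.54 and 7.21, and Matn1, a matrilin of tracheal cartilage, was 6.22 and 6.32, near the negative controls in both. Of 20 counted genes 4 were at least 2-fold higher in trachea and 2 in oviduct, the latter being Cnmd (5.95 and 8.10, at least 4.32-fold) and Sox9 (7.80 and 9.09, 2.45-fold), which is also expressed outside cartilage.

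Matrix and vessel markers were mostly higher in trachea. Eln (9.85 and 8.48, 2.58-fold), Tnc (8.39 and 7.04, 2.54-fold) and Mfap5 (8.48 and 7.37, 2.15-fold) were 3 of 15 fibroblast and matrix genes past 2-fold in that direction, and Lum (8.28 and 9.38, 2.14-fold) was 1 in the other. Of 14 endothelial genes 3 were at least 2-fold higher in trachea and 0 in oviduct (median -0.65), namely Pecam1 (9.48 and 7.27, 4.62-fold), Plvap (8.86 and 7.26, 3.03-fold) and the lymphatic marker Lyve1 (8.83 and 7.41, 2.67-fold). The share under 2-fold was 73.3% of fibroblast and matrix genes and 78.6% of endothelial genes, against 88.8% of all genes. The 9 nerve genes had no common direction, with 4 above 0 and a median of -0.16. Cdh19 (7.01 and 4.43, at least 2.37-fold) and Mbp (8.95 and 7.09, 3.62-fold) were higher in trachea, whereas Erbb3 was 8.45 and 8.96 and Bex3 was 8.50 and 9.19.

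Markers of cell types other than lining and wall were among the largest differences. All 13 counted lymphocyte markers were at least 2-fold higher in trachea, with median levels of 9.15 in trachea and 5.82 in oviduct, and their summed linear signal was 9616 and 903. Of the 13, 6 were below background in oviduct. These and Cd8a, under the oviduct array median, were counted through trachea alone, which fixes their direction. The 13 markers included the B cell genes Cd79b (10.90 and 6.69, 18.5-fold), Ms4a1 (9.07 and 4.56, at least 9.82-fold) and Cr2 (9.28 and 4.28, at least 11.4-fold). The T cell genes Cd3e (10.12 and 6.29, 14.2-fold) and Cd8a (9.15 and 5.82, 10.1-fold) were also in the list. Btla, Il7r and Bank1, further lymphocyte genes, stood at 10.14, 10.01 and 9.76 in trachea and 5.05, 5.22 and 5.09 in oviduct. Of 267 counted gene segments of the antigen receptors, 187 were at least 2-fold higher in trachea (against 6.53% of all genes) and 0 in oviduct. These 187 made up 14.3% of the 1304 genes at least 2-fold higher in trachea. Segments below background in oviduct, such as Ighv1-82 and Ighv3-6, were counted through trachea alone, which fixes their direction. Among the 187 segments Ighv1-82 was 9.42 and 4.70, Ighv3-6 was 8.81 and 4.27, and Traj38 was 11.16 and 6.13. Segments resemble each other, so a single segment's value is uncertain. The part of these cells in the other differences was not tested.

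Markers of fat and of lung alveoli were also higher on the trachea array. Of 11 adipocyte genes 8 were at least 2-fold higher in trachea and 0 in oviduct (summed linear signal 7816 and 1678). Ucp1, the uncoupling protein of brown fat, was 10.40 and 4.79 (at least 24.8-fold), Fabp4 was 10.76 and 6.86 (14.9-fold), and Adipoq was 8.05 and 6.52 (2.88-fold). Of 9 counted alveolar genes 4 were at least 2-fold higher in trachea (summed linear signal 4704 and 2121), with the surfactant genes Sftpc at 10.60 and 6.40 (18.4-fold), Sftpa1 at 9.06 and 5.67 (at least 9.75-fold) and Sftpb at 9.04 and 7.16 (3.7-fold). Tg, the thyroglobulin gene that defines thyroid, was 5.89 in trachea, below background; Tshr, which is also expressed outside the thyroid, was 5.43 in trachea and 9.14 in oviduct (at least 8.91-fold). Oesophageal markers were weak, with Krt4 at 7.18 and 5.78 (2.63-fold higher in trachea) and Krt13 at 6.23 and 6.65.

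Genes of ovarian somatic cells were high on the oviduct array. Of 11 counted genes of ovarian somatic cells 8 were at least 2-fold higher in oviduct and 1 in trachea, and their summed linear signal was 1429 in trachea and 14818 in oviduct. Cyp11a1, the enzyme that starts steroid synthesis from cholesterol, was 5.51 and 12.05 (at least 66.7-fold), the largest difference towards oviduct; a second probe set of that gene was 5.83 and 5.73. Hsd3b1 was 4.64 and 10.42 (at least 21.7-fold), Star, which brings cholesterol into mitochondria, was 5.92 and 9.94 (at least 15.5-fold), and Inha, the inhibin subunit of granulosa cells, was 8.23 and 12.35 (17.3-fold). Akr1cl was 4.94 and 10.13 (at least 17.6-fold), whereas Akr1c18, which degrades progesterone, was 8.21 and 4.93 (at least 5.44-fold higher in trachea). Cyp17a1, the androgen-making enzyme of theca cells, was 5.09 and 5.74, below background on both arrays. Oocyte genes were weak. Of 13 measured 10 were counted, 9 of them below background in trachea. Those also under the array median there were counted through oviduct alone, which fixes their direction. The median of 1.33 fell to 0.58 with a floor at background. The zona pellucida genes Zp3 and Zp2 were 5.43 and 4.29 in trachea and 7.47 and 6.49 in oviduct. Several genes of the Mullerian and hormone lists, such as Wt1, Foxl2, Gata4, Amhr2, Fshr and Esr2, are also known from ovary. The part of ovarian cells in those differences was not tested.

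**Figure D5:**
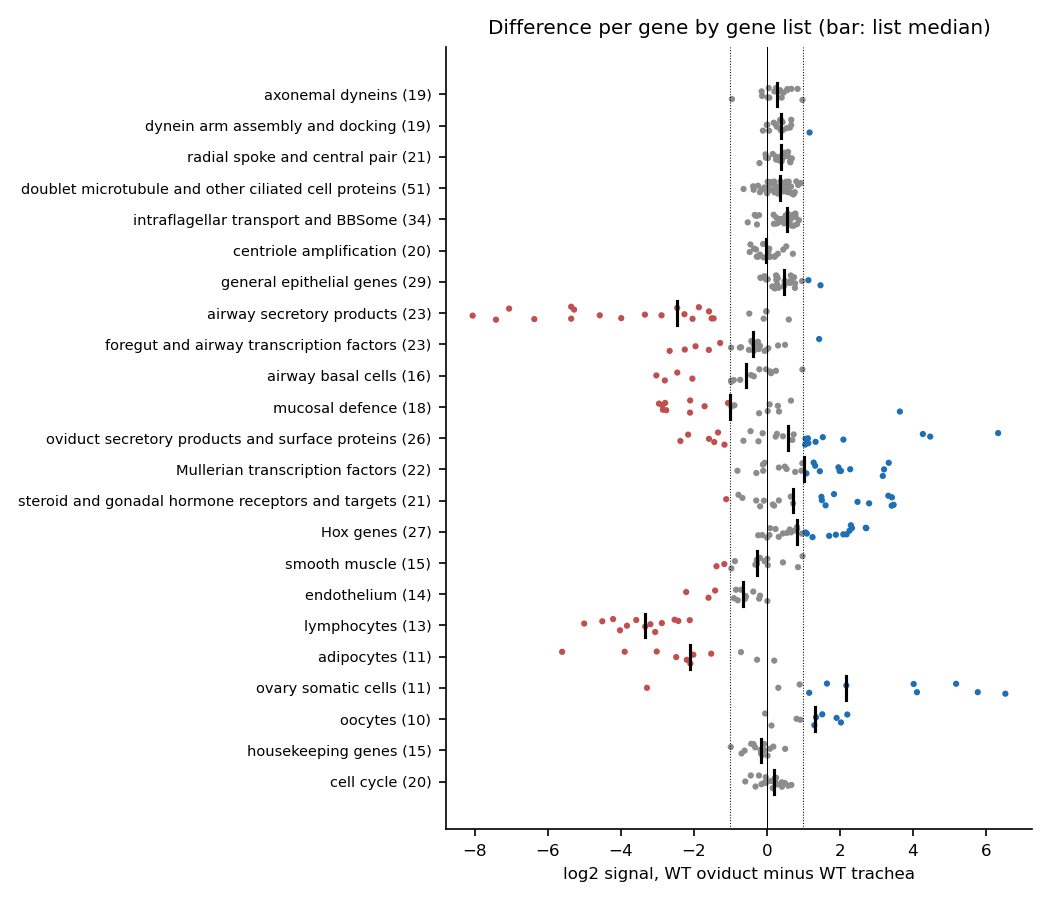
Difference in log2 RMA signal, WT oviduct minus WT trachea (horizontal axis), for each counted gene of 23 lists (1 point per gene, number in brackets), coloured red where at least 2-fold higher in trachea and blue where at least 2-fold higher in oviduct, with a black bar at the list median and dotted lines at 2-fold. The motile cilia and intraflagellar transport lists cluster just right of 0 with medians from 0.28 to 0.56, the airway secretory and lymphocyte lists lie to the left at medians of -2.46 and -3.33, and the ovarian somatic list lies to the right at 2.18.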

How the data were processed

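Per the submitters' processing notes the deposited values were made with RMA; its settings, and which arrays were normalised together, are not known from the notes. The deposited numbers were log2 values taken of log2 values: raising 2 to each gave 6 significant digits in 100% of cells (relative tolerance 1e-09), so that power is used here as the log2 signal. The 2 value columns of null mice were not used. Of 65956 transcript clusters, 31223 had 1 gene in GEO's platform annotation (symbols updated through RefSeq, GRCm38.p6), 1527 had several and 33206 were not listed. Of several probe sets per gene (438 genes) the one with the highest mean was used. A gene was counted if at or above the array median (percentile 50) on at least 1 array. Negative controls were recognised from probe set names. Named genes were the 20 largest differences per direction, the markers Ovgp1, Pax8, Bpifa1 and Scgb3a1, the extremes of each list and all members of the regulator, transcription factor, hormone and Hox lists; others only illustrate a list. The members and the 37 lists were chosen with earlier results of these data known; 6 more lists were added after the values were seen. Summed linear signals cover all measured members. The counting was tested on simulated data. Alternatives changed the filter, probe set choice, centring, normalization, floor and fold threshold. Python 3.11.15, pandas 2.3.3 and numpy 2.4.6 were used.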

Additional observations from a re-analysis of the deposited data

How the results depend on the processing

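No paired analysis was possible because each tissue has 1 array, and for the same reason no array could be left out. Requiring the array median on both arrays gave 861 genes at least 2-fold higher in trachea and 512 in oviduct, against 1304 and 931. The counts were 2360 and 2139 at 1.5-fold, 656 and 439 at 3-fold, and 427 and 264 at 4-fold. Centring on housekeeping genes gave 1101 and 1266, so the share of calls in trachea was 46.5% in place of 58.3%. The number of motile cilia genes under 2-fold ranged from 89, when a gene had to reach the negative controls' upper quartile and 90 were left, to 114 of 115 with a floor at the negative-control median. Of 340 alternative values for 38 list medians 332 moved by less than 1.5-fold. With the negative controls' upper quartile as the filter, the median was 1.89 for Hox genes, -0.86 for ion, water and bicarbonate transport, -2.10 for mucosal defence and -1.11 for skeletal muscle. The mucosal defence median was -0.18 with no filter and -0.21 with the floor, which left the oocyte median at 0.58. The airway secretory median was -1.86 with the filter on both arrays. For 10 lists with medians within 0.24 of 0 the sign changed under at least 1 alternative, among them the centriole and regulator lists. The cause of these shifts was not tested. The number of arrays and the spread of the negative controls limit every weak value.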

Other observations

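Cardiac muscle genes and genes of lymphoid stroma were recognised on the trachea array only after the values had been seen and are given as values. Nppa, the atrial natriuretic peptide, was 9.95 in trachea and 5.85 in oviduct (17.1-fold), the atrial myosin light chain Myl7 was 10.83 and 6.85 (15.8-fold), and the cardiac myosin Myh6 was 9.42 and 6.21 (9.24-fold), while Tnni3 was 8.43 and 7.86. Of 9 genes of lymphoid stroma and high endothelial venules 6 were at least 2-fold higher in trachea and 0 in oviduct (summed linear signal 8542 and 1094). Glycam1, a ligand of L-selectin on venules of lymph nodes, was 10.79 and 5.42 (at least 32.4-fold), and the chemokines Cxcl13 and Ccl19, which draw B and T cells together, were 11.76 and 10.97 in trachea and 7.29 and 7.35 in oviduct (22-fold and 12.3-fold).

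Cell cycle and Notch genes are given beside the share of all genes. Of 20 counted cell cycle genes 0 passed 2-fold (median 0.19), against 88.8% of all genes under 2-fold, with Mki67 at 7.84 in trachea and 7.77 in oviduct and Ccnb2 at 7.10 and 7.77. Of 18 Notch pathway genes 2 were at least 2-fold higher in trachea and 0 in oviduct: the glycosyltransferases Mfng (7.90 and 6.46, 2.7-fold) and Lfng (9.23 and 7.96, 2.41-fold), so 88.9% were under 2-fold. The ligand Jag1 was 8.69 and 9.65, Dll1 was 7.39 and 6.98, and Notch1 was 8.41 and 8.33. Among 15 counted myeloid genes 2 were higher in trachea, Itgax (7.52 and 6.05, 2.78-fold) and Csf1r (8.69 and 7.57, 2.16-fold), whereas Adgre1 was 6.63 and 6.70. The 86.7% of myeloid genes under 2-fold is near the 88.8% of all genes.

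Transcript clusters with no single gene name were counted in the same way. Of 14867 that reached the array median on at least 1 array, 856 (5.76%) were at least 2-fold higher in trachea and 1112 (7.48%) in oviduct. Emx2os, the antisense partner of Emx2, was 4.67 in trachea and 8.38 in oviduct (at least 5.27-fold).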
